A study of Mus musculus with 30 samples.

Results

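Runx2, Sp7, Dlx3, Dlx5, Dlx6, Msx1 and Msx2 encode transcription factors of the osteoblast lineage, and their transcripts were followed in mouse IDG-SW3 cells as these cells matured into osteocyte-like cells. The 7 genes were taken by name from the 25520 gene symbols listed for untreated cells and the 25410 listed for a hormone experiment. They were chosen with earlier results of these data known. IDG-SW3 is a conditionally immortalised bone cell line, so every library comes from 1 line rather than from separate animals. The cells had been expanded at 33 °C with interferon-gamma and then differentiated at 37 °C without it, on collagen, in medium with ascorbic acid and beta-glycerophosphate. Untreated cells were sequenced at 6 times, which were day 3, day 7, day 14, day 21, day 28 and day 35 of differentiation (n = 3 libraries per time, 18 in all). In the hormone experiment, cells at day 3 or day 35 received ethanol vehicle or 100 nM 1,25(OH)2D3, the active form of vitamin D3, for 24 h (n = 3 libraries in each of 4 groups, 12 in all). The labels call the replicates biological.

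RUNX2 is the Runt-domain factor without which mesenchymal cells do not become osteoblasts. SP7, also called osterix, is a zinc finger factor of the SP family that acts after RUNX2 in the same lineage. DLX3, DLX5, DLX6, MSX1 and MSX2 are homeodomain proteins, induced in many skeletal settings by bone morphogenetic proteins (BMPs). The DLX proteins mostly activate osteoblast genes, whereas MSX2 is best known for keeping progenitors proliferating and for opposing DLX5 at shared sites. Dlx5 and Dlx6 lie next to each other as a convergent gene pair, and an antisense transcript, Dlx6os1, runs through Dlx6.

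Untreated cells are given in RPKM (reads scaled by transcript length and library size) and hormone-experiment cells as read counts and as CPM (counts scaled by library size with the TMM method). Levels are not compared between the 2 experiments, which used different library kits. Changes are log2 differences ± SE, from limma on log2(RPKM + 0.5) for untreated cells and from edgeR's quasi-likelihood test for the hormone experiment, and a gene was called at a Benjamini-Hochberg adjusted p below 0.05 over all genes tested. Total counts in the hormone experiment ran from 22062866 to 54325515 per library. The depth of the untreated libraries is unknown because their files hold no counts. Genes that every cell uses were listed at 0 RPKM in some untreated libraries (Tbp in 4, Hprt in 3 and Ppia in 1 of 18), so a 0 there is given only as listed. The summed level of 10 osteoblast and osteocyte markers was 120.8 to 157.0 RPKM in day 3 libraries and 454.0 to 775.4 RPKM in day 35 libraries. It was 84.73 to 105.9 RPKM at day 7 and 67.19 to 101.4 RPKM at day 14. At day 35, 5 of the 10 had a mean of at least 1 RPKM. Dmp1, Phex, Mepe, Sost and Pdpn reached 1 RPKM in too few untreated libraries to be tested, so the sum says little of these. The 5 macrophage markers summed to at most 1.085 RPKM in any untreated library. In the hormone experiment they summed to 3.34 to 6.34 CPM in day 3 vehicle libraries and 26.0 to 30.0 CPM in day 35 vehicle libraries. Of the 4 tested there, Lyz2 alone was called higher at day 35 (2.91 ± 0.29, adjusted p = 2.1e-06).

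Promoter sequences were available for Runx2, Msx1 and Msx2 in RefSeq (GRCm38.p6), and the 250 bases before each start are shown because these members took different courses below: Msx2 was lower late in both experiments, and Runx2 and Msx1 were called in neither before centring. They are written 5′ to 3′ on the gene's strand, all on the minus strand of the genome. Capitals mark the letters of 4 short motifs searched on both strands: TGTGGT (the RUNX core), TAATTA (a homeodomain core), GGGCGG (the GC box bound by SP factors) and AGGTCA (a nuclear receptor hexamer).
Msx1, chr5:37824586-37824835: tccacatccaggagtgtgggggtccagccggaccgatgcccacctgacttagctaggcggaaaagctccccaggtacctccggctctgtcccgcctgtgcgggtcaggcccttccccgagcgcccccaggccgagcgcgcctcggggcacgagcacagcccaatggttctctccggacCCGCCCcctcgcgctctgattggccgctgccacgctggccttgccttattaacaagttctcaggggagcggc
Msx2, chr13:53472781-53473030: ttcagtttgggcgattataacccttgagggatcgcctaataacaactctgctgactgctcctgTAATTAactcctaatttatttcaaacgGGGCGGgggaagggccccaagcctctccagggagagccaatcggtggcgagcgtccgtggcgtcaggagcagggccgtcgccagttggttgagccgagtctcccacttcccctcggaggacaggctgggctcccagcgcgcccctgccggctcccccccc
Runx2, chr17:44814628-44814877: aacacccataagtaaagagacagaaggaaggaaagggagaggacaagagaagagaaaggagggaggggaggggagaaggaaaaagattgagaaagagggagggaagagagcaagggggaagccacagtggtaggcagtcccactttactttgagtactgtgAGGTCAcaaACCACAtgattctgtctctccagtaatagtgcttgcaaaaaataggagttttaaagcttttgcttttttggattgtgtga
The Msx1 window held a GC box on the opposite strand, starting 72 bases before the start. The Msx2 window held the homeodomain core at 187 bases and the GC box at 160 bases. In the Runx2 window the hexamer began at 89 bases and the RUNX core, on the opposite strand, at 80 bases, so the pair sits within one short stretch. Among 32851 promoters of the same length, 14.0% held the RUNX core, 4.84% the homeodomain core, 32.7% the GC box and 14.0% the hexamer, so each match is a description only.

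Sp7 was the member that changed most in untreated cells. Its RPKM values were 4.186, 3.628 and 3.909 at day 3, then 3.517, 3.98 and 2.386 at day 7 and 2.798, 2.42 and 3.23 at day 14. They were 13.012, 17.311 and 12.526 at day 21, then 37.647, 37.955 and 44.339 at day 28, before 38.533, 35.937 and 19.299 at day 35. The libraries of days 21, 28 and 35 all lay above every library of the first 3 days, and day 35 replicate 3 stood well below the other two of its day. The mean went from 3.91 ± 0.28 RPKM (SD) at day 3 to 40.0 ± 3.8 at day 28, a ratio of 10.2, and was 31.3 ± 10.4 at day 35. Against day 3, Sp7 changed by -0.24 ± 0.25 at day 7 and -0.42 ± 0.25 at day 14, neither called (25.7% and 29.7% of the 9933 genes were), and rose by 1.73 ± 0.25 (adjusted p = 2.28e-05) at day 21, 3.20 ± 0.25 (1.24e-08) at day 28 and 2.79 ± 0.25 (2.76e-08) at day 35. In those comparisons 37% and 41.5% of genes were called at days 21 and 28. Over any of the 6 days, 72.5% of genes were called, Sp7 and Dlx5 among the members.

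The steps between neighbouring days place the rise of Sp7 between days 14 and 28. From day 14 to day 21 it rose by 2.15 ± 0.25 (adjusted p = 0.000276) and from day 21 to day 28 by 1.46 ± 0.25 (adjusted p = 0.00306). Few genes were called in these weeks, 0.634% and 1.24% of the 9933 tested. From day 28 to day 35 the difference was -0.41 ± 0.25 (adjusted p = 0.26), and it was 0.02 once each library was centred on its median, so those days are not separated by this test, which called 7.98% of genes. Centring matters because the median of all tested genes shifted by -0.69 from day 3 to day 35. Centred, the day 35 rise of Sp7 was 3.61 (adjusted p = 3.04e-09). Day 35 replicates 2 and 3 shared a sequencing run with no other day, and a fit that includes the run gave a rise of 3.23 (adjusted p = 3.67e-06).

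**Figure D1:**
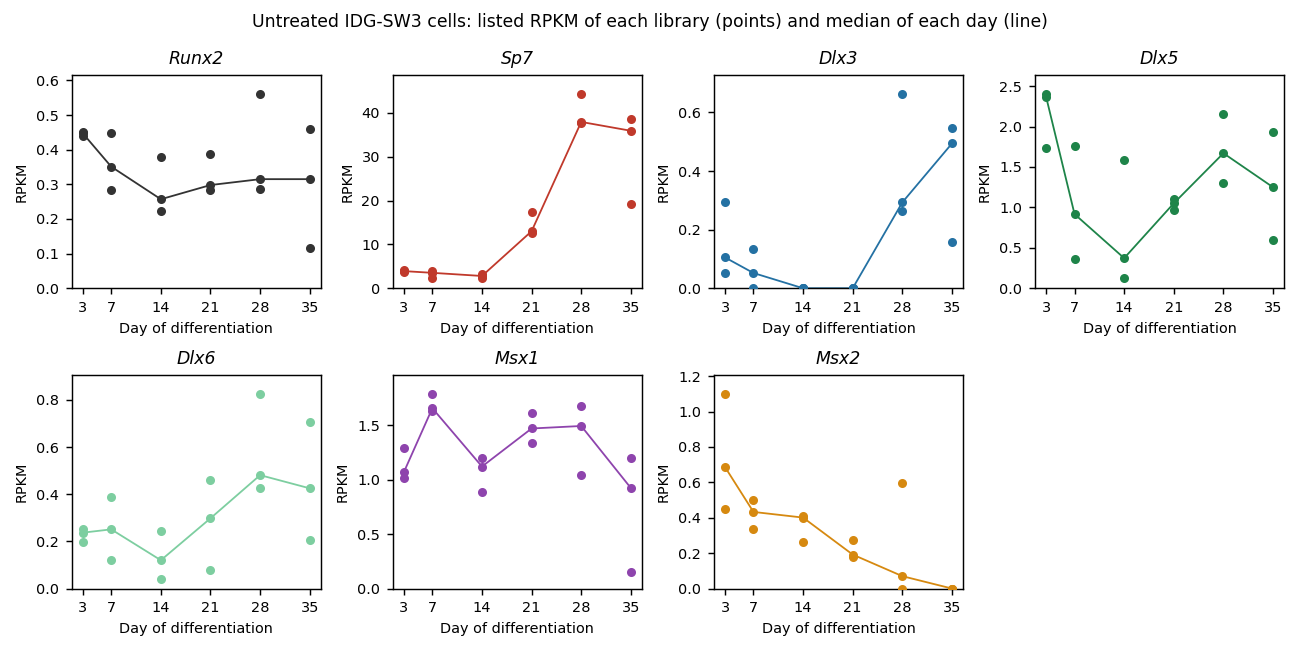
RPKM of the 7 genes in untreated IDG-SW3 cells against the day of differentiation, with a point for each library and a line through the median of each day. Each panel has its own axis. Sp7 runs from 2.386 to 44.339 RPKM and leaves its early range at day 21, while no library of Runx2, Dlx3 or Dlx6 reached 1 RPKM.

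Runx2 was listed in 3 rows for untreated cells, of which the one with the highest mean was used. Its levels, ratios and shares in untreated cells describe that row, whereas count rows were summed in the hormone experiment. In the row used, Runx2 stayed low throughout, between 0.116 and 0.561 RPKM. Its values were 0.441, 0.45 and 0.447 RPKM at day 3, tightly grouped, and 0.459, 0.315 and 0.116 RPKM at day 35, which overlap them. No Runx2 library reached the 1 RPKM that the filter asks for in 3 libraries, and so Runx2, Dlx3, Dlx6 and Msx2 were left out of the main test and Sp7, Dlx5 and Msx1 (3 of the 7) were tested. Without that filter, over 17001 genes, Runx2 changed by -0.27 ± 0.16 from day 3 to day 35 (adjusted p = 0.185). The direction depends on the scaling: centred on library medians the difference was 0.55 and passed (adjusted p = 0.00286), and with the sequencing run in the model it was 0.08 (adjusted p = 0.869). Centring, here and below, shifts log2(RPKM + 0.5) as a whole, pseudocount included. For a gene as low as Runx2 the centred difference is thus set in part by the pseudocount.

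The ratio of Sp7 to Runx2 shows how the pair parted. Sp7 RPKM was 9.49, 8.06 and 8.75 times that of the Runx2 row used in the day 3 libraries. At day 35 it was 84.0, 114.1 and 166.4 times that row, with no overlap. On the log2 scale the difference was 3.74 (two-sided exact permutation p = 0.1, the smallest that 3 against 3 libraries allow). Of the summed RPKM of all 7 members, Sp7 made up 44.6% ± 0.2 at day 3 and 90.9% ± 1.3 at day 35, and Runx2 5.11% ± 0.43 and 0.807% ± 0.259 (SD, n = 3).

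Dlx5, an activator of early osteoblast genes, was the second most abundant member at day 3. Its RPKM values were 2.403, 1.733 and 2.364 on day 3 and 1.754, 0.917 and 0.366 on day 7, followed by 1.586, 0.122 and 0.372 for day 14. Day 21 libraries had 1.108, 0.972 and 1.051 RPKM, those of day 28 1.299, 2.155 and 1.67, and those of day 35 1.937, 0.596 and 1.249. All libraries of days 14 and 21 were below those of day 3, with a wide spread at day 14, and the later days overlap day 3. It fell by 1.35 ± 0.38 on the log2 scale from day 3 to day 14 (adjusted p = 0.0109), a comparison in which 15.3% of genes were called lower. That call was lost with the sequencing run in the model (-1.11, adjusted p = 0.0531) and without day 14 replicate 2 (-0.97, adjusted p = 0.082). The change to day 35 was -0.66 ± 0.38 (adjusted p = 0.142). The files list Dlx5 in a pair of rows, of which the one with the higher mean was used. In the other row, which was not tested, Dlx5 had 1.37, 1.659 and 1.563 RPKM on day 3, 0.356, 0.723 and 0.31 on day 7 and 0.522, 0.432 and 0.314 on day 14. That row had 1.364, 0.906 and 0.739 RPKM on day 35, so there day 7, day 14 and day 35 were all below day 3.

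Dlx6, the neighbour of Dlx5, was lower and took another course. It was 0.198, 0.237 and 0.253 RPKM at day 3, had its lowest library at day 14 (0.039 RPKM) and was 0.481, 0.425 and 0.824 RPKM at day 28 and 0.425, 0.705 and 0.205 RPKM at day 35. The day 28 libraries were all above those of day 3, and the day 35 libraries overlapped them. Without the filter its change to day 35 was 0.34 ± 0.22 (adjusted p = 0.225), and 1.16 (adjusted p = 0.000238) when centred. Like that of Runx2, this centred value is set in part by the shifted pseudocount. Dlx5 was 12.1, 7.31 and 9.34 times as abundant as Dlx6 at day 3 and 4.56, 0.845 and 6.09 times at day 35, a log2 difference of -1.71 that again reached the smallest exact permutation p of 0.1. It was -0.83 without day 35 replicate 2 and -1.004 with a pseudocount of 0.5. Dlx6os1, which overlaps Dlx6, rose by 0.79 ± 0.20 (adjusted p = 0.00267), a call lost once the run was included (adjusted p = 0.0606), and it rose by 1.17 ± 0.31 in the vehicle cells described below (adjusted p = 0.00899). The kits keep the strand but the counting setting is not stated, so reads of Dlx6 and Dlx6os1, or of Msx1 and its antisense RNA, may not have been told apart.

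Dlx3 was near the limit of detection. It was 0.051, 0.295 and 0.105 RPKM at day 3 and 0.134, 0.052 and 0 at day 7, and was listed at 0 in all 6 libraries of days 14 and 21. It was listed at 0.663, 0.293 and 0.262 RPKM at day 28 and 0.494, 0.547 and 0.159 RPKM at day 35. Without the filter the step from day 21 to day 28 was 0.83 ± 0.18 (adjusted p = 0.0356), where 0.894% of genes were called, and the change from day 3 to day 35 was 0.46 ± 0.18 (adjusted p = 0.0496). With all day 21 libraries at 0 the size of the step is set by the pseudocount, 2.25 with 0.1 and 0.48 with 1. The day 35 call rests on a margin: it was lost under 17 of 23 alternatives, and under 9 of 23 the step from day 21 was lost too.

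The MSX pair differed from each other. Msx1 was 1.017, 1.07 and 1.292 RPKM on day 3, 1.782, 1.626 and 1.654 on day 7 and 0.882, 1.119 and 1.2 on day 14. Day 21 libraries had 1.607, 1.331 and 1.468 RPKM, those of day 28 1.675, 1.042 and 1.491, and those of day 35 1.197, 0.922 and 0.151. Its libraries of days 7 and 21 were all above those of day 3, and day 35 replicate 3 was far below every other library. None of its 5 changes from day 3 was called. The change to day 35 was -0.48 ± 0.26 (adjusted p = 0.126), and with centring it was 0.34, the other direction.

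Msx2 was highest on day 3, with 1.098, 0.686 and 0.451 RPKM. It was 0.433, 0.503 and 0.335 RPKM on day 7, 0.261, 0.401 and 0.408 on day 14 and 0.276, 0.178 and 0.192 on day 21. Day 28 libraries had 0.594, 0 and 0.07 RPKM, and all 3 libraries of day 35 were listed at 0. From day 7 onward, 1 library alone (day 28 replicate 1, 0.594 RPKM) was above 0.503 RPKM. In the test without the filter Msx2 fell by 0.77 ± 0.23 to day 21 (adjusted p = 0.019), by 0.84 ± 0.23 to day 28 (0.00933) and by 1.28 ± 0.23 to day 35 (0.000253). The size of these falls depends on the pseudocount: with 0.1 in place of 0.5 they were -1.36, -1.82 and -3.01, the first no longer called (adjusted p = 0.0544). The day 21 call was also lost without day 3 replicate 1 (-0.57), day 21 replicate 2 (-0.73) or day 21 replicate 3 (-0.75), and that of day 28 without day 3 replicate 1 (-0.65) or day 28 replicate 2 (-0.62). Of 5 alternative fits, the pseudocount of 0.1 among them, 2 kept the day 21 call and 4 kept the day 28 call. The changes in these fits ran from -1.36 to -0.51 at day 21 and from -1.82 to -0.44 at day 28. In the test without the filter, 27.8% and 32.5% of the 17001 genes were called at days 21 and 28 and 44.3% at day 35. At day 35, 39.8% were called lower, and Sp7, Dlx3 and Msx2 were the members called (3 of 7). With centring the fall to day 35 was -0.46 and did not pass (adjusted p = 0.0794). All day 35 libraries were listed at 0, so the centred day 35 level is the shifted pseudocount alone. In the main test 57.1% of 9933 genes were called at day 35 and 5.63% were called higher, and Sp7 was the called member among the 3 tested.

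The vehicle libraries of the hormone experiment give the same span of days in counts. Sp7 had 192, 387 and 286 reads in the day 3 vehicle libraries and 2725, 2418 and 1525 at day 35. Its level was 6.66 ± 2.02 CPM against 76.4 ± 12.8 CPM (SD, n = 3), 11.5-fold higher with no overlap, and the change was 3.52 ± 0.23 (adjusted p = 2.81e-08). Dlx3 had 7, 23 and 23 reads at day 3 and 174, 89 and 51 at day 35, a rise of 3.08 ± 0.57 (adjusted p = 0.000652) from a mean of 0.406 to 3.46 CPM. Msx2 had 126, 162 and 133 reads at day 3 and 15, 5 and 14 at day 35. It fell by 3.03 ± 0.56 (adjusted p = 0.000717), from 3.26 to 0.397 CPM, with every day 35 library below every day 3 library.

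These were 3 of the 7 members, in a comparison where 29.9% of 20055 genes were called, 15.5% higher and 14.5% lower. All 3 calls held under each of the 18 alternatives run for them. Runx2 had 161, 138 and 241 reads at day 3 and 254, 150 and 122 at day 35, which overlap, and its change was 0.51 ± 0.32 (adjusted p = 0.248). Dlx6 had 10, 0 and 15 reads at day 3 and 28, 40 and 35 at day 35. The groups did not overlap, but the change of 2.63 ± 1.16 was not called (adjusted p = 0.103), whereas DESeq2 called it (2.67, adjusted p = 0.0156). Dlx5 had 11, 16 and 38 reads against 48, 31 and 36, and Msx1 13, 8 and 16 against 21, 12 and 15. Dlx5 changed by 1.41 ± 1.21 and Msx1 by 0.93 ± 0.96, neither called. A fit on so few reads leaves wide errors for these genes.

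Levels can be ordered across members per kilobase. In day 3 vehicle cells the mean CPM per kilobase was highest for Sp7, and Sp7 made up 48.7% ± 7.8 of the members' summed level, Msx2 25.4% ± 4.2 and Runx2 12.2% ± 3.7 (SD, n = 3). At day 35 the shares were 86.8% ± 2.1 for Sp7, 2.61% ± 0.46 for Runx2 and 0.498% ± 0.314 for Msx2. The ratio of Sp7 to Runx2 in CPM per kilobase was 3.10, 7.29 and 3.09 in the day 3 vehicle libraries and 27.9, 41.9 and 32.5 at day 35, a log2 difference of 3.03 (exact permutation p = 0.1). For Msx2 to Msx1 the log2 difference was -4.17 (exact permutation p = 0.1). Dlx5 to Dlx6 differed by -0.59 (exact permutation p = 0.4, 3 against 2 libraries, since Dlx6 had 0 reads in day 3 vehicle replicate 2). A count of 0 there allows up to 0.0677 CPM, by counting error alone.

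**Figure D2:**
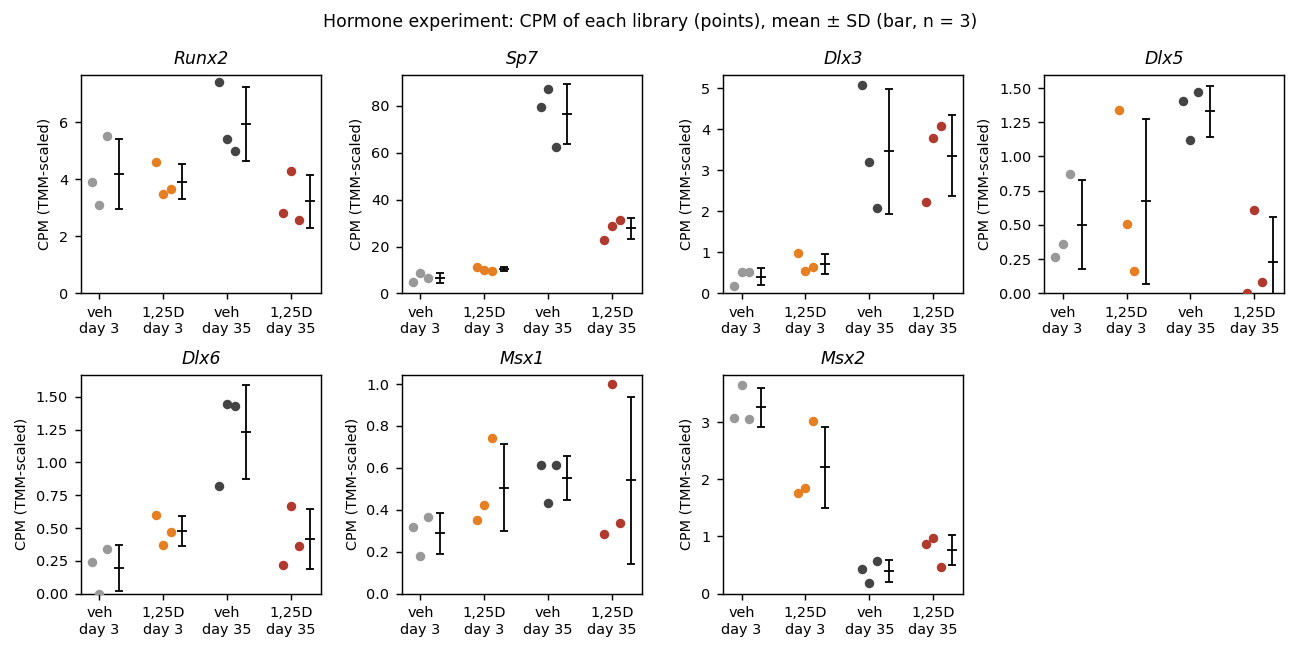
CPM of the 7 genes in the hormone experiment, with a point for each library and a bar for the mean ± SD (n = 3) of day 3 and day 35 cells after vehicle (veh) or 1,25(OH)2D3 (1,25D). Sp7 is highest in day 35 vehicle cells (62.3 to 87.3 CPM) and lower in all 3 day 35 hormone libraries (22.8 to 31.5 CPM), while Msx2 is highest at day 3.

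The hormone lowered Sp7 in day 35 cells. The vehicle libraries held 79.7, 87.3 and 62.3 CPM and the 1,25(OH)2D3 libraries 22.8, 28.9 and 31.5 CPM, from 1132, 954 and 1487 reads. Every treated library lay below every vehicle library and above every library of day 3. Sp7 fell by 1.46 ± 0.21 (adjusted p = 0.000602), to 0.363 of the vehicle mean, and the change ranged from -1.56 to -1.29 over the main test and 18 alternatives. Sp7 was the called member (1 of 7), in a comparison that called 4.56% of genes, 2.14% lower. The summed level of the 10 osteoblast and osteocyte markers was also lower, 10820 to 13580 CPM against 20540 to 26430 CPM in vehicle. Ibsp and Col1a1 made up most of that sum, 3 of the 10 were called lower (Ibsp, Phex and Pth1r), and Dmp1 and Pdpn had higher means without a call. The summed level of 6 adipocyte markers was 111.2 to 146.1 CPM against 53.0 to 64.6 CPM. Lpl, from a mean of 25.4 to 91.0 CPM, was the called one of the 5 tested, while Cebpa and Pparg had lower means without a call. The part of these markers in the change of Sp7 was not tested, and in bulk RNA fewer cells of a type cannot be told apart from less RNA per cell.

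Runx2 moved the same way at day 35 without passing the test. It had 254, 150 and 122 reads after vehicle and 140, 142 and 121 after hormone, or 5.94 against 3.23 CPM, with all treated libraries lower in CPM. The change was -0.88 ± 0.32 (adjusted p = 0.173). The count files give Runx2 in 3 rows, of which the third held no reads. The first row took 56.3%, 63.3% and 38.5% of the reads of rows 1 and 2 in the vehicle libraries and 19.3%, 35.9% and 26.5% in the hormone libraries. The 95% Wilson interval of the lowest vehicle share, 30.4% to 47.4%, overlaps that of the highest hormone share, 28.5% to 44.1%. Tested alone, which was decided after seeing the data, the first row changed by -1.79 (adjusted p = 0.0684) and the second by -0.26 (adjusted p = 0.85). The files do not say which transcript each row is.

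Dlx5 was lowest in the treated day 35 cells: 0, 20 and 4 reads, against 48, 31 and 36 after vehicle. All treated libraries were below all vehicle libraries, and the library with 0 reads allows up to 0.0605 CPM. The change of -2.55 ± 1.27 was not called (adjusted p = 0.391). Dlx6 had 11, 22 and 17 reads against 28, 40 and 35 (-1.56 ± 1.11, adjusted p = 0.62), also without overlap. Msx2 had 43, 32 and 22 reads against 15, 5 and 14, a difference of 0.95 ± 0.54 (adjusted p = 0.489). Dlx3, at 110 to 192 reads against 51 to 174, and Msx1, at 14, 33 and 16 against 21, 12 and 15, overlapped between the groups and changed by -0.05 ± 0.51 and -0.04 ± 0.94.

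At day 3 no member was called by edgeR, in a comparison that called 20.5% of genes. Sp7 stood closest, with 319, 358 and 345 reads after hormone against 192, 387 and 286 after vehicle, or 11.2, 10.1 and 9.47 CPM against 4.68, 8.73 and 6.56. All 3 treated libraries were higher in CPM, and the change was 0.63 ± 0.22 (adjusted p = 0.0538). It was the 1 member below an unadjusted p of 0.05 and the 1 member called by DESeq2 (0.70, adjusted p = 0.0172). It was also called with RLE size factors (0.70, 0.0417) and without vehicle replicate 2 (0.86, 0.0172). Msx2 had 50, 65 and 110 reads after hormone against 126, 162 and 133, all lower, with a change of -0.56 ± 0.51 (adjusted p = 0.425). Runx2 had 131, 123 and 133 reads against 161, 138 and 241, a change of -0.10 ± 0.32 (adjusted p = 0.832). Background reads, described next, would make up 41.1, 38.3 and 52.8 of the treated Runx2 reads, and with them subtracted the change was -0.50 (adjusted p = 0.31).

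The remaining members had so few reads at day 3 that background mattered. The density over 1100 genes for olfactory receptors, proteins of the nose, came to 4.33 to 5.98 reads per kilobase in the day 3 hormone libraries, 3.94 in day 35 hormone replicate 2 and 0.285 to 1.25 in the other 8. At that density a gene as long as Msx1 would collect 14.4, 13.4 and 18.5 reads in the day 3 hormone libraries, where Msx1 had 10, 15 and 27. Dlx5 had 38, 18 and 6 reads there against 10.5, 9.81 and 13.5 expected, Dlx6 17, 13 and 17 against 11.0, 10.3 and 14.2, and Dlx3 28, 19 and 23 against 12.1, 11.3 and 15.6. These counts are thus partly or wholly at background level. As counted, the day 3 changes were 0.81 ± 0.55 for Dlx3, 0.42 ± 1.20 for Dlx5, 1.27 ± 1.12 for Dlx6 and 0.81 ± 0.95 for Msx1, and with the background subtracted all 4 turned negative, at -0.05, -0.11, -0.31 and -1.20, still not called. Sp7, with 14.7 to 20.3 reads expected from background, changed by 0.72 after subtraction (adjusted p = 0.0451).

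**Figure D3:**
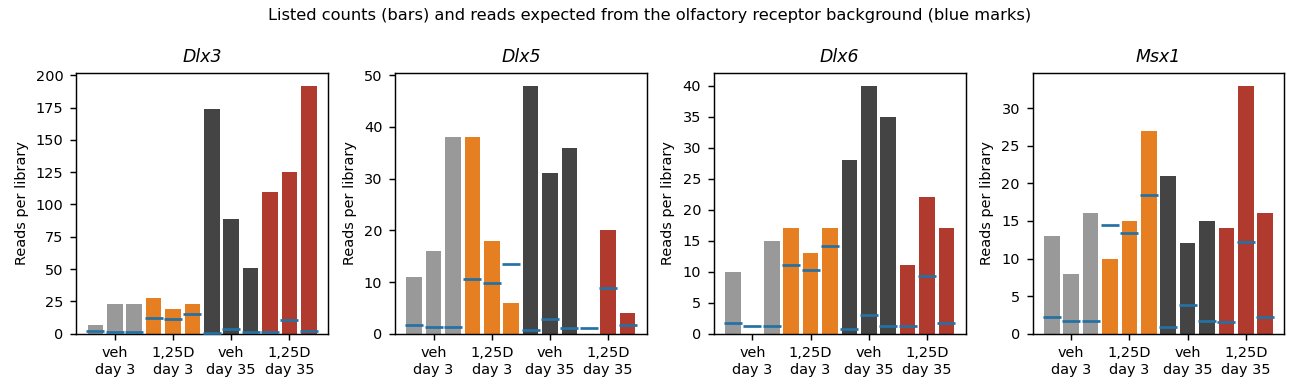
Reads of Dlx3, Dlx5, Dlx6 and Msx1 in each of the 12 hormone-experiment libraries (bars, 3 per group, replicates 1 to 3 from left to right), with the reads that the density on olfactory receptor genes predicts for a gene of that length (blue marks). The marks reach 9.81 to 18.5 reads in the day 3 hormone libraries and stand above the bar for Dlx5 in replicate 3 and for Msx1 in replicate 1, while the day 35 vehicle bars of Dlx3, Dlx5 and Dlx6 stand well above theirs.

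The hormone response of Sp7 differed between the days. Against vehicle it was 0.63 at day 3 and -1.46 at day 35, and the difference of the responses was -2.09 ± 0.31 (adjusted p = 0.000548), with 7.08% of genes called in that comparison. The 3 treated libraries were above their vehicle libraries at day 3 and below them at day 35. The difference was called under all 17 alternatives run for it, from -2.32 to -1.76, with the background subtracted among them. No other member was called: Runx2 differed by -0.78 ± 0.45, Dlx3 by -0.86 ± 0.75, Dlx5 by -2.96 ± 1.73, Dlx6 by -2.83 ± 1.58, Msx1 by -0.85 ± 1.34 and Msx2 by 1.51 ± 0.74. Without day 35 hormone replicate 2, the day 35 library with the high background, Dlx5 was called as well (-5.17, adjusted p = 0.0352).

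**Figure D4:**
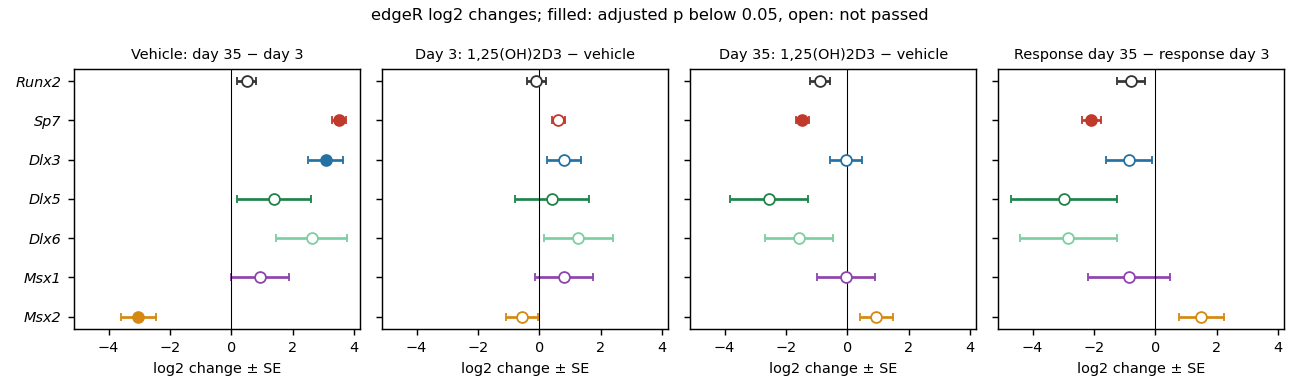
log2 changes ± SE of the 7 genes from edgeR in the vehicle time comparison, the hormone comparisons at day 3 and at day 35, and the difference between those responses. Filled points passed an adjusted p below 0.05: Sp7, Dlx3 and Msx2 in the first panel, none in the second, and Sp7 alone in the third (-1.46) and the fourth (-2.09).

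Relatives of the members in the RUNX, SP, DLX and MSX families were described from a list of 19 genes. This list and those below were chosen with earlier results of these data known, so their counts are descriptions. At day 35 against day 3, 2 rose and 6 fell of the 9 tested in untreated cells, and 3 rose and 5 fell of the 16 tested in vehicle cells, with list medians of -1.06 and -0.85 beside -0.69 and 0.17 over all tested genes. Over all genes 5.63% were called higher and 51.5% lower in untreated cells, and 15.5% and 14.5% in vehicle cells. With centring the untreated counts of relatives were 2 and 4. Sp6, the SP family member known from tooth and skin, took the direction of Sp7 in the comparisons given next, but rose earlier in untreated cells. It rose by 2.28 ± 0.24 in untreated cells (adjusted p = 2.26e-07) and by 3.19 ± 0.28 in vehicle cells (6.11e-07), rose with the hormone at day 3 by 1.30 ± 0.27 (0.0051) and fell with it at day 35 by 1.59 ± 0.27 (0.0018). The difference of its responses was -2.88 ± 0.38 (adjusted p = 0.000215), and its level went from 31.3 ± 1.5 to 10.4 ± 1.9 CPM at day 35.

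Sp6 had already reached 2.02 to 2.57 RPKM at day 7, against 0.200 to 0.300 RPKM at day 3, whereas Sp7 did not leave its early range until day 21. Sp8, known for its role at the limb bud ridge, went the other way. It fell by 2.71 ± 0.21 in untreated cells (adjusted p = 4.65e-09), by 5.15 ± 0.37 in vehicle cells (5.9e-08) and with the hormone at day 3 by 2.38 ± 0.31 (0.000139). Of the DLX relatives, Dlx2 fell by 1.61 ± 0.20 in untreated cells (adjusted p = 1.06e-06) and Dlx1 by 1.24 ± 0.23 in vehicle cells (0.000693). Sp1 fell by 1.18 ± 0.22 in vehicle cells (adjusted p = 0.000625) and by 0.71 ± 0.21 with the hormone at day 3 (0.0336), the latter not called with the background subtracted (adjusted p = 0.0686). Sp3 fell by 1.83 ± 0.22 in untreated cells (adjusted p = 6.93e-07) yet rose by 0.61 ± 0.22 in vehicle cells (0.0489), so its direction was opposite in the 2 experiments.

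Partners and regulators of RUNX2 and SP7 mostly fell in untreated cells, 14 of 18 tested against 2 that rose, with a median of -1.22 beside -0.69 over all genes and 8 lower and 3 higher after centring. Over all genes 51.5% were called lower. In vehicle cells 6 rose and 7 fell of 22, where 15.5% of all genes were called higher and 14.5% lower. Twist2, which blocks RUNX2 in early progenitors, fell by 3.15 ± 0.24 in untreated cells (adjusted p = 3.47e-09). Atf4, a partner of RUNX2, rose by 1.00 ± 0.30 (adjusted p = 0.00844). Hivep3, known for limiting RUNX2 in osteoblasts, fell by 1.84 ± 0.17 in untreated cells (2.96e-08) and changed by -4.81 ± 0.78 in vehicle cells (0.00022), and the Notch effector Rbpj fell by 2.68 ± 0.23 in untreated cells (1.34e-08).

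In vehicle cells, Alx4, a homeobox gene of the skull, rose by 3.95 ± 0.43 (adjusted p = 4.73e-06). Ctnnb1 (beta-catenin) rose by 3.01 ± 0.41 (4.76e-05) and Tcf7, its nuclear partner, by 3.07 ± 0.43 (5.32e-05), while the AP-1 gene Fosl2 fell by 1.89 ± 0.18 (1.2e-06) and the corepressor Tle1 by 1.63 ± 0.20 (1.95e-05). The hormone at day 3 raised 1 gene of 22 and lowered 6, with a list median of -0.37 beside 0.26 over all genes, of which 20.5% were called. Alx4 rose by 2.11 ± 0.41 (adjusted p = 0.00324), a call lost with the background subtracted (adjusted p = 0.0657). Fosl2 fell by 2.33 ± 0.18 (1.06e-06), Twist1 by 1.04 ± 0.16 (0.000403) and Atf4 by 0.90 ± 0.18 (0.00422). At day 35 the hormone raised 2, Cebpb by 1.15 ± 0.19 (0.00145) and Fosl2 by 0.67 ± 0.18 (0.041). It lowered 4, with Atf4 at -0.80 ± 0.18 (0.0187), Tcf7 at -1.65 ± 0.40 (0.0267) and Zfp521 at -0.85 ± 0.21 (0.0285). The list median was -0.34 beside 0.02 over all genes, of which 4.56% were called and 2.14% called lower.

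Most known targets of RUNX2, SP7 and the DLX factors were, like Sp7, higher at day 35 than at day 3. In untreated cells 13 of 15 rose by day 35 and none fell. Their median was 2.39 beside -0.69 over all genes, of which 5.63% were called higher. In vehicle cells all 18 rose, with a median of 3.98 beside 0.17 over all genes, of which 15.5% were called higher. The list was chosen with earlier results of these data known, so these counts only describe it. Courses differed: Spp1 (2.09 ± 0.32, adjusted p = 9.71e-05) and Mmp13 (0.89 ± 0.31, 0.0388) were already called higher at day 7, 2 of the 15. Over all genes 25.7% were called there. At day 14, 2 were called higher than at day 3 and 4 lower, where 15.3% of all genes were called lower. The 4 were Alpl (-1.11), Bglap (-1.04), Col1a1 (-0.70) and Panx3 (-1.79). From day 14 to day 21, 6 were called higher, Alpl, Bglap and Panx3 among them, where 0.634% of all genes were called. Spp1 was not called at day 35 in untreated cells (0.72 ± 0.32, adjusted p = 0.0591). Ibsp (bone sialoprotein) rose by 5.49 ± 0.34 in untreated cells (adjusted p = 3.74e-10) and 8.55 ± 0.25 in vehicle cells (1.94e-11), and Bglap (osteocalcin) by 5.20 ± 0.33 (4.84e-10) and 6.37 ± 0.33 (3.15e-09). Panx3, a membrane channel of osteoblasts, rose by 5.23 ± 0.35 (8.29e-10) in untreated cells, and Smpd3, a sphingomyelinase needed for mineralization, by 5.31 ± 0.20 (1.27e-10) in vehicle cells.

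The hormone split this list. At day 3, 2 of 18 rose and 6 fell, with a list median of -0.41 beside 0.26 over all genes, of which 20.5% were called. Spp1 (osteopontin), a direct vitamin D target, rose by 1.48 ± 0.21 (adjusted p = 0.00024), and Sost, called higher as well, had no reads in the 3 vehicle libraries and 0.0275 to 0.564 CPM after hormone, a call lost with the background subtracted (adjusted p = 0.072). Tnfrsf11b (osteoprotegerin) fell by 2.11 ± 0.31 (0.000316), Dmp1 by 1.51 ± 0.27 (0.00161) and Phex by 0.71 ± 0.15 (0.00589). At day 35, 2 rose and 5 fell, with a list median of -0.64 beside 0.02 over all genes, of which 4.56% were called. Spp1 rose by 3.56 ± 0.22 (adjusted p = 2.58e-07) and the collagenase Mmp13 by 1.11 ± 0.19 (0.00223). Smpd3 fell by 2.75 ± 0.17 (2.58e-07), Panx3 by 2.00 ± 0.28 (0.000382) and Ibsp by 1.39 ± 0.19 (0.000269), in the libraries in which Sp7 fell by 1.46.

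Genes of the BMP pathway, which induces Dlx and Msx genes, were described from a list of 16 that holds ligands, receptors, signal carriers, targets and inhibitors. Of these 1 rose and 10 fell among 14 tested in untreated cells (3 and 7 with centring), with a median of -1.24 beside -0.69 over all genes, of which 51.5% were called lower. In vehicle cells 1 rose and 7 fell among 16, with a median of -0.42 beside 0.17 over all genes, of which 14.5% were called lower. Id1, a direct BMP target, fell by 2.80 ± 0.27 (adjusted p = 7.03e-08) and 2.29 ± 0.22 (1.52e-06), and the inhibitory Smad7 by 2.15 ± 0.30 (5.98e-06) and 1.37 ± 0.17 (1.5e-05). Smad1, which carries the BMP signal, fell by 1.40 ± 0.21 in untreated cells (1.49e-05), and Id2 by 1.81 ± 0.17 in vehicle cells (1.31e-06). The ligand gene Bmp2 rose, by 0.57 ± 0.22 (adjusted p = 0.0347) and 3.63 ± 0.57 (0.000177). In untreated cells its largest change from day 3 was at day 14 (3.03 ± 0.22, adjusted p = 9.8e-09). From day 28 to day 35 it fell by 1.36 ± 0.22 (adjusted p = 0.00314).

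With the hormone at day 3, 9 of the 16 BMP genes fell and Bmp4 alone rose, by 0.54 ± 0.14 (adjusted p = 0.0179). The list median was -0.73 beside 0.26 over all genes, of which 20.5% were called and 9.09% called lower. Id1 fell by 2.55 ± 0.23 (3.12e-06), Smad7 by 1.87 ± 0.17 (3.78e-06) and Id2 by 1.62 ± 0.17 (1.86e-05). At day 35 the hormone lowered 2, Id2 by 1.37 ± 0.17 (0.000163) and Nog, a secreted BMP antagonist, by 3.34 ± 0.73 (0.0137), the latter not called with the background subtracted (adjusted p = 0.0913). Over all genes 4.56% were called there, 2.14% lower. The hormone comparisons and the vehicle time comparison share their vehicle libraries, so their values for these lists are given side by side only.

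Genes whose levels ran most like a member's were looked for among 9371 genes tested in both experiments, by the smaller of 2 Pearson correlations, over the 18 untreated and over the 12 hormone-experiment libraries. For Sp7 these were Zfp862 (r = 0.968 and 0.957), Pth1r, the receptor of parathyroid hormone (0.977 and 0.956), and Rftn2 (0.957 and 0.956). For Dlx5 they were Cspg4 (0.697 and 0.709), Sncaip (0.725 and 0.664) and Plxnc1 (0.661 and 0.734), and for Msx1 they were Plekha2 (0.678 and 0.711), Mgll (0.651 and 0.636) and LOC100503195 (0.635 and 0.746). The best matches of Dlx5 and Msx1 were thus looser than those of Sp7. Cspg4 (1.018 to 1.149 RPKM) and Sncaip (1.057 to 1.174 RPKM) reached 1 RPKM in the day 3 libraries alone. They passed the filter through that day, on which Dlx5 was also highest, and reached at most 0.293 and 0.348 RPKM later. Zfp862 reached 1 RPKM only at days 28 and 35, on which Sp7 was highest. Dlx5 had 0 to 48 and Msx1 8 to 33 reads per hormone-experiment library, in part at background level. Mgll had 13 and 33 reads in all in the day 3 vehicle and day 3 hormone groups. The part of background in these correlations was not tested. Untreated values were centred on library medians for these matches, but not for the pairs of members that follow. Between members, the correlation of Sp7 with Dlx3 was 0.688 in untreated and 0.901 in hormone-experiment libraries, and that of Sp7 with Msx2 was -0.669 and -0.946. Dlx3 and Msx2 were listed at 0 in 7 and 4 untreated libraries, so their untreated values depend on the pseudocount. All these values are descriptions over libraries that share day and treatment.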

How the data were processed

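Per the submitters' processing notes, reads were aligned with TopHat (version not stated) to the mouse build mm9. The steps to the deposited values are not given in the sources used here. The untreated files hold RPKM as made by the authors. The hormone files carry RPKM in their names, yet every deposited value is a whole number and was read as a raw count, so edgeR was used there as the design provided. Symbols listed in several rows took the row with the highest mean (RPKM) or the sum (counts).

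For untreated libraries limma 3.58.1 was run with a trend on log2(RPKM + 0.5), over the 9933 genes that reached 1 RPKM in 3 or more libraries (12 residual degrees of freedom). Counts were tested with edgeR 4.0.16 (quasi-likelihood, filterByExpr, TMM, 8 residual degrees of freedom, 20055 genes), with DESeq2 1.42.0 as an alternative, in R 4.3.3. All tests are two-sided, and p-values were adjusted by Benjamini-Hochberg over all genes. CPM per kilobase used GRCm38 exon lengths. Intervals and the floor of 3 counts cover counting error only.

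The 7 members and the gene lists were chosen with earlier results of these data known. Apart from those given for their course before day 35, named list genes are up to 3 per list and direction with the smallest adjusted p among those called at day 35 against day 3 or with the hormone. A result that this rule would name is not reported here. Sequencing runs were read from the names of the untreated files, and none is given for the hormone experiment. Both tests were tested on simulated data.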

Additional observations from a re-analysis of the deposited data

Results flagged for a closer look

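The hormone responses of Sp7 at day 35 and day 3 differed, by -2.09 ± 0.31 on the log2 scale in edgeR's interaction test (adjusted p = 0.000548). In the 3 treated libraries Sp7 was higher than in all vehicle libraries at day 3 and lower than in all of them at day 35.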

How the results depend on the processing

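Sp7 kept its calls at days 21, 28 and 35, in vehicle cells, with the hormone at day 35 and in the difference of the responses under every alternative run. Next are the numbers of members called, against day 3 unless another day is named. At day 7, 1 was called in place of 0 with the replicate block (Dlx5), with only the days compared (Msx1) and without some libraries (0 to 1). At day 14, 0 in place of 1 was called with the sequencing run in the model, and 0 to 1 without single libraries. At day 21, 2 in place of 1 were called without the filter (Msx2), with centring and with quantile normalization (Msx1) and with only the days compared (Dlx5), and at day 28, 2 in place of 1 without the filter (Msx2), with centring and with quantile normalization (Msx1). At day 35, 3 in place of 1 were called without the filter, and 1 to 2 without single libraries. From day 21 to 28, 2 in place of 1 were called without the filter, and from day 28 to 35, 0 to 1 without single libraries (Msx1, without day 35 replicate 1). Over all 6 days 2 members were called, and 1 to 3 without single libraries. The hormone at day 3 called 1 (Sp7) with RLE size factors, DESeq2 or the background subtracted, and 0 to 1 without single libraries, and the difference of the responses 1 to 2. With a pseudocount of 0.5, the log2 ratio difference was 3.06 for Sp7 to Runx2 in untreated cells and -2.51 for Msx2 to Msx1 in vehicle cells.

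Some values changed sign. From day 3 to day 28 Dlx5 was 0.12 with centring and 0.17 with quantile normalization, and to day 35 0.16 and 0.19. Msx1 to day 35 was 0.34 and 0.29, and 0.084 with the run. Runx2 to day 35 without the filter was 0.55 with centring, which passed (adjusted p = 0.00286) but shifts the pseudocount too. It was 0.075 with the run. Sp7 from day 28 to day 35 was 0.016 with centring and 0.0042 with quantile normalization. With the background subtracted the day 3 hormone changes were -0.055 (Dlx3), -0.11 (Dlx5), -0.31 (Dlx6) and -1.20 (Msx1), the day 35 change of Dlx3 0.014, and the differences of the responses 0.068 (Dlx3) and 1.07 (Msx1). At day 35, Dlx3 was 0.021 with RLE, 0.018 with DESeq2 and 0.028 with only the groups compared, and Msx1 was 0.055 with RLE, 0.015 without the filter, 0.039 with DESeq2 and 0.070 with only the groups compared. Without single libraries, Runx2 with the hormone at day 3 ran from -0.28 to 0.058 and Dlx5 from -0.57 to 0.98, and at day 35 Dlx3 ran from -0.27 to 0.34 and Msx1 from -0.80 to 0.33. The causes were not tested.

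The replicate numbers were not taken as pairs. Deviations of same-numbered libraries correlated above 0.1 in 41 of 45 pairs of untreated groups (lowest 0.0578) and in 4 of 18 pairs of hormone groups, and 8 of 18 and 4 of 12 libraries correlated best with their own number. The median correlation was 0.269 for same-numbered and -0.301 for other untreated pairs, and -0.0228 and 0.0188 in the hormone experiment. Replicate 1 of every untreated day came from the same sequencing run, so replicate number and run are partly tied there. With the replicate block Sp7 at day 35 of the untreated course was 2.79 (adjusted p = 6.78e-09) and with the hormone at day 35 -1.46 (0.00106), and no call of a member changed other than that of Dlx5 at day 7 and that of Msx1 over all 6 days. Depth limits Dlx5, Dlx6 and Msx1 most, whose highest count in any library was 48, 40 and 33 reads.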
